A study of Mus musculus with 9 samples.

Results

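Tmem203, the gene targeted in these mice, was described together with the calcium pumps of the endoplasmic reticulum (ER) and Golgi and the small proteins that act on them. The set held 9 genes of the 18193 that the array reads through a probe set of their own. They were Tmem203, the sarco/endoplasmic reticulum calcium ATPases (SERCA) Atp2a1, Atp2a2 and Atp2a3, the secretory pathway pumps Atp2c1 and Atp2c2, the SERCA inhibitors Pln and Sln, and Srl. A probe set is a group of short oligonucleotides on the array that is summarised into a single signal, and every probe set annotated to 1 of these genes alone was taken, which gave 22 of 45037. The rule uses gene names and no signal.

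Testis RNA of 5 Tmem203 null samples and 4 wild-type (WT) samples was compared. All came from untreated mice on the C57BL/6J background at 24 weeks of age, with 1 Affymetrix mouse array per RNA sample. The null mice carry a germline deletion that takes the start codon of Tmem203 and part of its 5′ untranslated region, and a fragment of the targeting vector with an FRT site stays in the locus. Left and right testes were collected separately, and whether each array is another animal is not certain here, so p-values describe how these samples spread and may in part be technical. Whole testis RNA cannot tell fewer cells of a type from less RNA per cell. Values are log2 signals after Robust Multichip Average (RMA) processing, differences are null minus WT on that log2 scale, and a probe set counts as detected when its log2 signal reached 5 on at least 1 array. A difference passed the test when its p, adjusted over all 45037 probe sets, was under 0.05 in limma. Signals of different probe sets are not comparable with each other, because each binds its target with its own strength.

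The medians of the arrays lay between 6.96 and 7.05, and arrays correlated with each other at 0.993 to 0.998. WT replicate 3 stood apart from the rest. Its highest correlation with any other array was 0.996, and an estimate of array quality (limma's array weights) gave it a weight of 0.313. Gapdh had a 3′ minus 5′ signal of 0.81 to 0.90 in null samples and of 0.92 to 0.95 in WT samples, a difference of -0.08 (p = 0.0238, two-sided exact permutation test, smallest p it allows 0.00794). For beta-actin that difference was -0.03 (p = 0.341, same exact test). Both groups had strong signals for germ cell markers, which is what testis RNA should hold: the mean over 10 round spermatid probe sets was 12.37 to 12.44 in null samples and 12.43 to 12.58 in WT samples. Probe sets that passed were 1 lower of 12 for spermatocytes, 0 of 10 for round spermatids and 0 of 21 for elongating spermatids. Spermatogonia had 2 higher and 1 lower of 15. Over all detected probe sets of single genes, 5.7% were higher and 4.23% lower.

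TMEM203 is a small membrane protein of the ER. SERCA pumps spend ATP to carry calcium from the cytosol into the ER, and so set how much calcium the store holds for release through inositol trisphosphate receptors and ryanodine receptors. The secretory pathway pumps fill the Golgi with calcium and manganese. Phospholamban and sarcolipin, the products of Pln and Sln, are small membrane proteins that lower the calcium affinity or the efficiency of SERCA, and sarcalumenin, from Srl, binds calcium in the lumen of the sarcoplasmic reticulum and is known mainly from striated muscle. Intracellular calcium is needed for the acrosome reaction of the sperm. The study states that a role of calcium stores in spermiogenesis had not been shown directly before.

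Tmem203 starts beside another gene. In RefSeq (assembly GRCm38.p6) its transcription start lies 25 bases from that of Ndor1, an oxidoreductase gene read from the opposite strand, so the upstream window of each gene runs into the other. The stretch with both starts, chr2:25255385-25255468 on the plus strand, is shown because the deletion of the targeted allele lies in the transcript of Tmem203, which runs to the right from here, while Ndor1 runs to the left.

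Start region of Tmem203 and Ndor1: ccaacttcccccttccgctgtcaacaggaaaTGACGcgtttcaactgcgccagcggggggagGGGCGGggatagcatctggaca

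Capitals mark TGACG, the core of a cAMP response element, and GGGCGG, a GC box. Both strands were searched for them in windows of 250 bases before to 50 bases after each start, of which RefSeq gave 6 for 5 of the genes (Tmem203, Atp2a1, Atp2a3, Atp2c1 and Pln). TGACG stood in 20.8% of all 32851 windows of mouse genes and GGGCGG in 35.7%. Tmem203 had 1 match to each. Atp2a3 had 5 matches to GGGCGG and 1 of the 2 windows of Atp2c1 had 4. CCAAT, which 37.4% of all windows held, matched once in Atp2a1 and once in Pln. The full cAMP response element TGACGTCA, which contains TGACG and was found in 1.79% of all windows, and the ER stress response element, which contains CCAAT and was found in 0.119%, matched none of the 6.

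Of the 22 probe sets, 17 were detected, and 8 of the 9 genes had at least 1 detected probe set. Sln had none. A single probe set was higher in null testes at an adjusted p under 0.05, that of Srl, against 4.12% of all probe sets. The 3 that were lower belonged to Tmem203, Atp2a3 and Pln, against 3.36% of all probe sets, and the Pln probe set was not detected on any array. Counted in either direction the set had 4 of 22, where 7.48% of all probe sets passed. An unadjusted p under 0.05 in limma was found for 5 of 22, and for 10386 of all 45037 probe sets. In 3 of the 22 all null samples lay on the same side of all WT samples (Tmem203, Atp2a3 and Srl), as they did in 11.8% of all probe sets. The median difference was 0.06 over the 22 probe sets and also 0.06 without Tmem203, against -0.01 over all probe sets. Outside Tmem203 no detected probe set differed by more than 0.36 in size, and Tmem203 alone also passed a threshold of 1.5-fold.

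**Figure D1:**
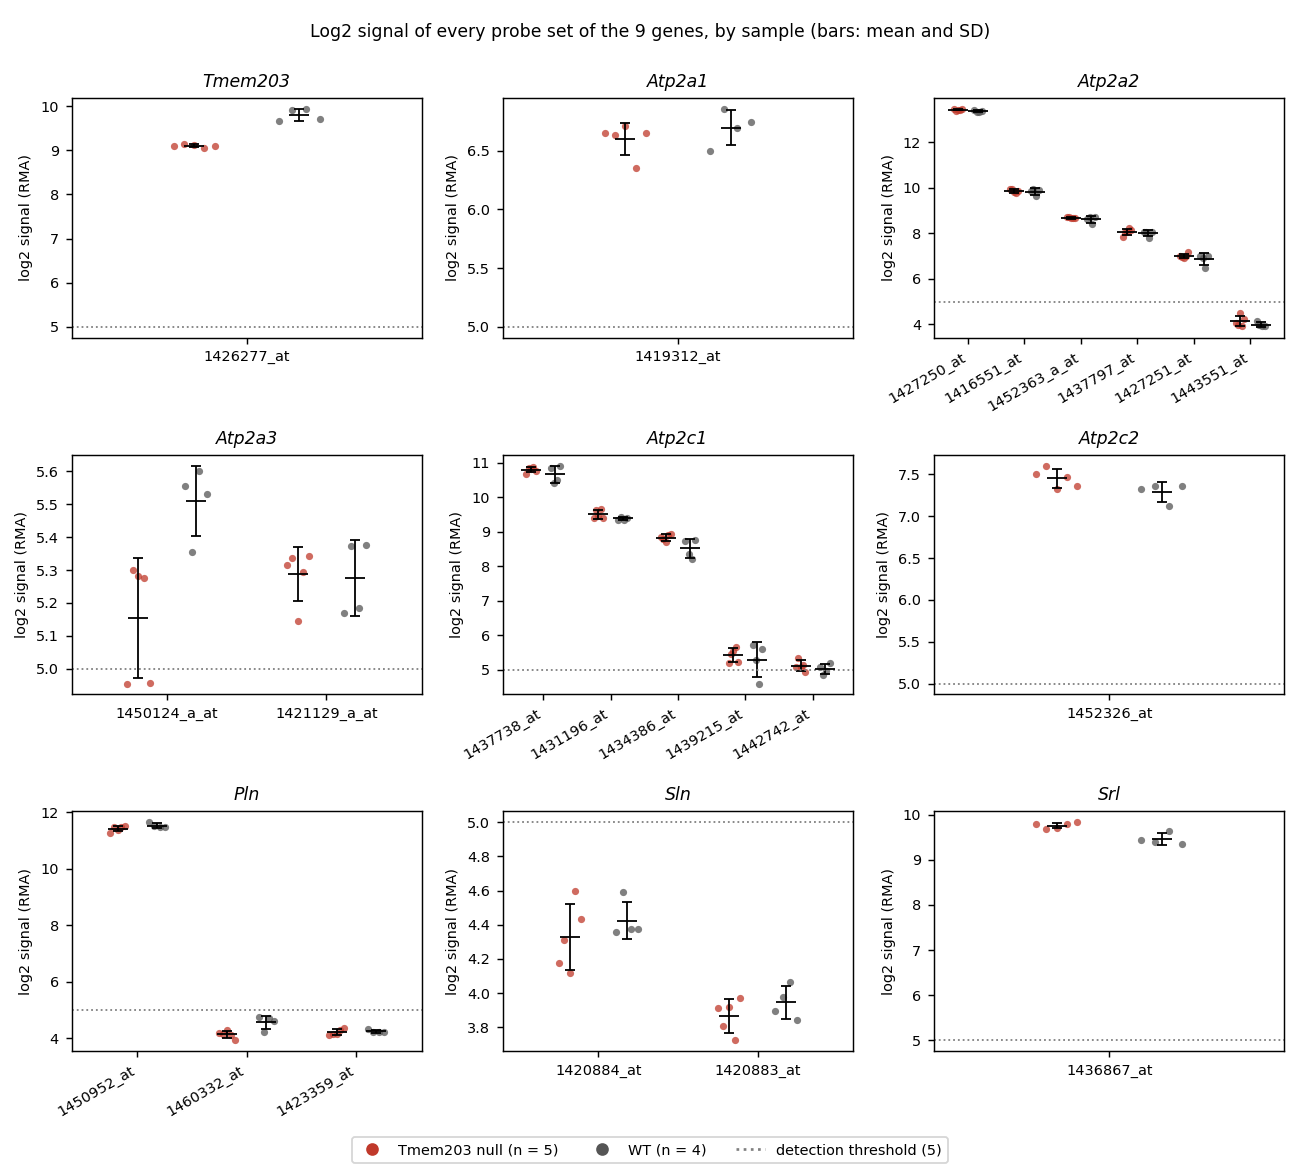
Log2 signal (vertical axis, RMA units) of each probe set of the 9 genes, with Tmem203 null samples (red, n = 5) left of WT samples (grey, n = 4). Bars give mean and SD, and the dotted line is the detection threshold of 5. Each gene has its own scale. The groups do not overlap for Tmem203, for 1450124_a_at of Atp2a3 and for Srl, and both probe sets of Sln stay under the threshold.

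The signal of the only Tmem203 probe set, 1426277_at, was lower in null testes, with no overlap between the groups. It gave log2 signals of 9.10, 9.13, 9.13, 9.06 and 9.10 in null samples, against 9.67, 9.91, 9.93 and 9.71 in WT samples. The null values lay within a narrow band and averaged 9.11 ± 0.03 (SD, n = 5), and the WT values averaged 9.81 ± 0.13 (SD, n = 4). The difference was -0.70 (standard error 0.06, 95% confidence interval -0.84 to -0.56, adjusted p = 2.87e-04), so that 61.5% of the WT signal was left on the linear scale (55.7% to 67.9%). The study sequenced Tmem203 cDNA from lung of null mice and reports a remaining transcript that lacks the start codon. The sources used here do not place this probe set inside or outside the deletion. Its signal is therefore not a check of the allele and cannot be read as its transcript level. Under the thresholds of the study's methods (adjusted p under 0.05, at least 1.5-fold, detected, a single gene), 211 probe sets were lower in null testes, 0.469% of all. Of these, 134 fell further than Tmem203 and 52 had a smaller p. Over all 17 other settings and left-out samples the difference stayed between -0.75 and -0.65, with an adjusted p between 6.95e-05 and 0.0119.

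The neighbour on the far side, Tprn, which encodes taperin, had a log2 signal of 11.47 ± 0.14 (SD, n = 5) in null samples and 11.47 ± 0.07 (SD, n = 4) in WT samples, a difference of -0.00 (standard error 0.08, adjusted p = 0.999). Ndor1 was not analysed here. Among 29237 detected probe sets of other single genes, the profile most like that of Tmem203 over the 9 arrays was that of 4933417G07Rik. Likeness was measured as the root mean square difference between profiles, each centred on its own mean, and was 0.037 on the log2 scale for that gene. Next came Actl10 at 0.054, 2 probe sets of Odf3b at 0.055 and 0.074, and Cby3 at 0.076. All 5 probe sets were lower in null samples, by differences of -0.72, -0.70, -0.66, -0.60 and -0.61 in the same order, which the choice of profiles fixes and which were therefore not tested.

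The SERCA pumps showed little difference between null and WT testes. Of their 9 probe sets 8 were detected, and the only one that passed the test was 1 of 2 for Atp2a3, at a low signal.

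Atp2a2 encodes SERCA2, the pump of heart and slow muscle whose other splice form serves as the general ER pump of most cells. Its probe set with the strongest signal, 1427250_at, read 13.47, 13.40, 13.44, 13.42 and 13.47 in null samples, against 13.43, 13.34, 13.35 and 13.40 in WT samples. The groups overlapped, with means of 13.44 ± 0.03 (SD, n = 5) in null and 13.38 ± 0.04 (SD, n = 4) in WT, and the difference was 0.06 (95% confidence interval -0.04 to 0.16, adjusted p = 0.470). The interval ends well short of 1.5-fold, which is drawn as a dotted line in the plot of differences. The other 4 detected probe sets of Atp2a2 differed by 0.04, 0.07, 0.06 and 0.15, with adjusted p between 0.457 and 0.793, and no interval reached beyond -0.14 or 0.39. Among these, 1416551_at read 9.75 to 9.97 in null and 9.64 to 9.94 in WT samples, 1452363_a_at 8.65 to 8.73 in null and 8.42 to 8.73 in WT samples, and 1437797_at 7.82 to 8.22 in null and 7.81 to 8.08 in WT samples. For 1427251_at the ranges were 6.91 to 7.18 in null and 6.48 to 7.02 in WT samples. WT replicate 3 was the lowest of the WT samples on each of these 4. Without it, the differences of 1416551_at and 1437797_at were -0.03 and -0.01. The remaining probe set, 1443551_at, was not detected, at 3.94 to 4.50 in null and 3.91 to 4.13 in WT samples (difference 0.15, adjusted p = 0.446).

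Atp2a1 encodes SERCA1, the pump of fast skeletal muscle. It was read at 6.65, 6.63, 6.71, 6.35 and 6.65 in null samples, against 6.49, 6.86, 6.69 and 6.74 in WT samples. The groups overlapped, and the difference was -0.10 (95% confidence interval -0.30 to 0.10, adjusted p = 0.565). The median difference of skeletal muscle markers was -0.02, and 2 of them were lower. The mean over 17 detected probe sets was 5.93 to 6.12 in null and 6.14 to 6.22 in WT samples. The 2 lower ones were Tmod4, with a difference of -1.76, and Tnnc2, with -0.66, where 4.23% of all detected probe sets of single genes were lower. The other 15 did not pass, among them actin gene Acta1 (5.49 ± 0.21 in null, 5.51 ± 0.10 in WT) and creatine kinase gene Ckm (5.94 ± 0.05 in null, 5.91 ± 0.06 in WT; SD, n = 5 and 4). Their part in the Atp2a1 signal was not tested.

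Atp2a3 encodes SERCA3, known from blood cells, endothelium and several epithelia. Of its 2 probe sets 1 passed the test. On 1450124_a_at the null samples read 4.95, 5.30, 5.28, 5.28 and 4.96, against 5.56, 5.36, 5.60 and 5.53 in WT samples. All null values lay below all WT values, but the highest null and the lowest WT sample were close to each other, and null replicates 1 and 5 were under the detection threshold. Means were 5.15 ± 0.18 (SD, n = 5) in null and 5.51 ± 0.11 (SD, n = 4) in WT, with a difference of -0.36 (standard error 0.09, 95% confidence interval -0.57 to -0.15, adjusted p = 0.0483). On 1421129_a_at the null samples read 5.32, 5.34, 5.15, 5.29 and 5.34, against 5.17, 5.37, 5.18 and 5.38 in WT samples, a difference of 0.01 (95% confidence interval -0.14 to 0.16, adjusted p = 0.940) with groups that overlapped throughout. The gap between the probe sets, 1450124_a_at minus 1421129_a_at within an array, averaged -0.13 in null and 0.23 in WT samples, a difference of -0.37. It is given without a test, since the pair was picked because 1 probe set passed and the other did not on these arrays. The lower call on 1450124_a_at was lost in 12 of 17 other settings, including the removal of any sample except null replicate 2, with adjusted p up to 0.165.

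**Figure D2:**
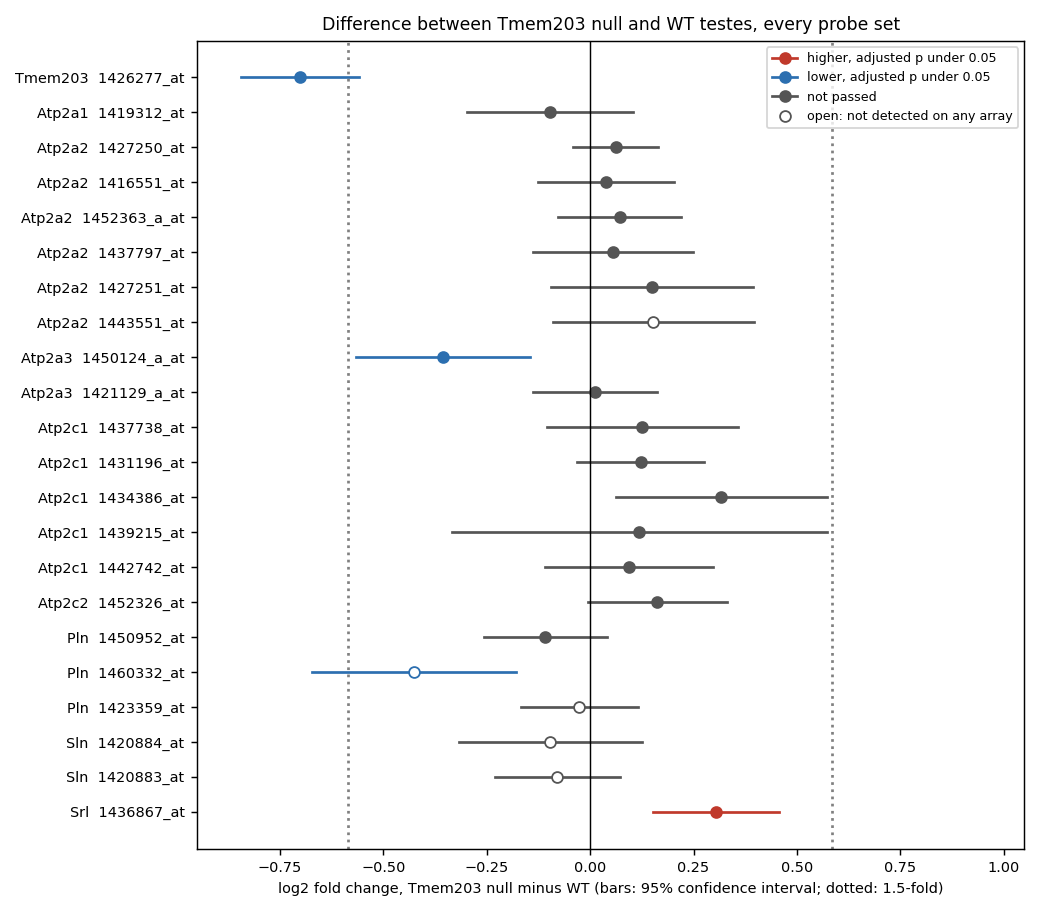
Difference in log2 signal (horizontal axis, Tmem203 null minus WT) for the 22 probe sets, with 95% confidence intervals from limma. Red and blue mark an adjusted p under 0.05, open circles were not detected on any array, and dotted lines mark 1.5-fold. Tmem203 at -0.70 is the only value beyond 1.5-fold, and the intervals of Atp2a2 span 0.

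The secretory pathway pumps had differences above 0 on all 6 probe sets, and none passed the test (0 in limma). An unadjusted p under 0.05 was found for 1 of the 6, and for 10386 of all 45037 probe sets. With array weights, 1439215_at of Atp2c1 was at -0.051. Atp2c1, which encodes the general Golgi pump SPCA1, had 5 detected probe sets with differences of 0.13, 0.12, 0.32, 0.12 and 0.09 and adjusted p between 0.128 and 0.771. On 1434386_at, with the largest of these, null samples read 8.84, 8.79, 8.69, 8.90 and 8.94, against 8.73, 8.36, 8.21 and 8.77 in WT samples. Both lowest values were WT samples, yet WT replicates 1 and 4 lay above null replicate 3, so the groups overlapped. The means were 8.83 ± 0.10 (SD, n = 5) in null and 8.52 ± 0.27 (SD, n = 4) in WT, with a difference of 0.32 (95% confidence interval 0.06 to 0.57). Its unadjusted p was 0.0195 and its adjusted p 0.128, and without WT replicate 3 the difference was 0.22 (adjusted p = 0.233).

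The other probe sets of Atp2c1 overlapped between the groups as well. The probe set 1437738_at read 10.68 to 10.87 in null and 10.42 to 10.91 in WT samples, and 1431196_at 9.39 to 9.67 in null and 9.35 to 9.43 in WT samples. Near the detection threshold, 1439215_at read 5.20 to 5.66 in null and 4.60 to 5.71 in WT samples, and its difference of 0.12 had the widest interval of the set (-0.33 to 0.57) and was -0.11 without WT replicate 3. The last, 1442742_at, read 4.93 to 5.35 in null and 4.86 to 5.19 in WT samples. Atp2c2, which encodes SPCA2, a pump known from secretory epithelia such as the mammary gland, read 7.50, 7.61, 7.32, 7.47 and 7.36 in null samples, against 7.33, 7.36, 7.12 and 7.36 in WT samples. The difference was 0.16 (95% confidence interval -0.01 to 0.33, adjusted p = 0.234).

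Among the proteins that act on SERCA or sit beside it, Srl was higher in null testes, and the inhibitor genes Pln and Sln had no detected probe set that passed the test. Srl, read by 1436867_at, had log2 signals of 9.79, 9.69, 9.70, 9.79 and 9.83 in null samples, against 9.43, 9.40, 9.65 and 9.34 in WT samples. Every null value was above every WT value, with WT replicate 3 next to the null samples. Means were 9.76 ± 0.06 (SD, n = 5) in null and 9.46 ± 0.13 (SD, n = 4) in WT, and the difference was 0.30 (standard error 0.07, 95% confidence interval 0.15 to 0.46, adjusted p = 0.0251), a ratio of 1.23. This call was lost in 9 of 17 other settings, with adjusted p up to 0.137, while without WT replicate 3 the difference was 0.37 (adjusted p = 0.00507).

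Some markers of Sertoli cells, Leydig cells and macrophages were higher in null testes, as Srl was, and 5.7% of all detected probe sets of single genes were higher and 4.23% lower. The mean over 16 Sertoli cell probe sets was 10.29 to 10.41 in null and 10.07 to 10.18 in WT samples, and 8 of the 16 passed as higher, with a median difference of 0.23. For 10 Leydig cell probe sets the means were 10.09 to 10.40 in null and 9.64 to 10.17 in WT samples, with 4 higher and a median difference of 0.39. The groups overlapped, since WT replicate 3, with the highest WT value here too, lay within the null range. For 13 macrophage probe sets they were 8.90 to 9.16 in null and 8.57 to 8.99 in WT samples, with overlap, 2 higher and a median difference of 0.25. Smooth muscle markers overlapped, at 8.83 to 9.05 in null and 8.73 to 9.08 in WT samples, with 1 of 10 higher (Smtn) and a median difference of -0.07, and heart muscle markers gave 7.90 to 8.14 in null and 8.05 to 8.25 in WT samples, with 1 of 8 lower (Tnnt2) and a median difference of -0.06. The part of these cells in the Srl signal was not tested.

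**Figure D3:**
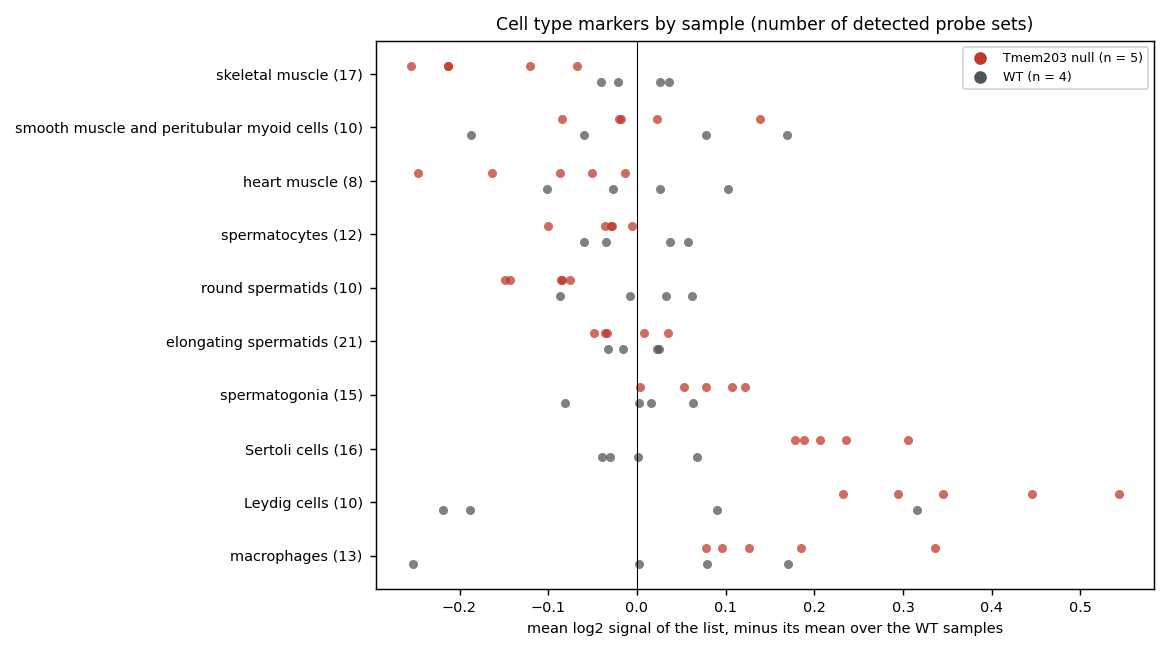
Mean log2 signal of the detected probe sets of each marker list in each sample, minus the mean of that list over the WT samples (horizontal axis, log2 scale), with Tmem203 null samples (red, n = 5) above WT samples (grey, n = 4). Counts of probe sets stand in brackets. The groups do not overlap for Sertoli cells, higher in null samples, nor for skeletal muscle, lower in null samples, where 2 of 17 probe sets (Tmod4 and Tnnc2) passed the test and the median difference was -0.02.

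Pln was read by 1 detected probe set, 1450952_at, with 11.27, 11.47, 11.38, 11.50 and 11.52 in null samples, against 11.66, 11.53, 11.50 and 11.47 in WT samples. The groups overlapped, and the difference was -0.11 (95% confidence interval -0.26 to 0.04, adjusted p = 0.369). The probe set of Pln that passed the test, 1460332_at, stayed under the detection threshold, at 4.17, 4.16, 4.28, 4.12 and 3.92 in null samples and 4.74, 4.21, 4.69 and 4.59 in WT samples. WT replicate 2 lay within the null range, and the difference was -0.43 (95% confidence interval -0.67 to -0.18, adjusted p = 0.0444). That call was lost in 11 of 16 other settings, with adjusted p up to 0.108. The third, 1423359_at, was not detected either (4.10 to 4.35 in null, 4.20 to 4.30 in WT, difference -0.03, adjusted p = 0.845). Sln, the inhibitor best known from skeletal muscle and atria, was not detected on any array, with 4.12 to 4.60 in null and 4.36 to 4.59 in WT samples on 1420884_at and 3.72 to 3.97 in null and 3.84 to 4.07 in WT samples on 1420883_at.

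Other genes were counted in 6 lists, of which 1 held the neighbours of Tmem203 and the rest genes of ER calcium handling. Together the 6 lists held 129 detected probe sets of 63 of the 76 genes listed. Of these, 4 were higher and 4 lower in null testes, 6.20% in all, where 9.93% of the 29238 detected probe sets of single genes passed (5.7% higher and 4.23% lower). The median difference was -0.00, against -0.01 over those 29238.

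Small regulators and partners of SERCA had 2 higher and 1 lower of 27 probe sets, with a median of 0.01. Both higher ones read Camk2d, a calmodulin-dependent kinase that phosphorylates phospholamban in heart. On 1422659_at it averaged 8.49 ± 0.13 (SD, n = 5) in null and 7.55 ± 0.41 (SD, n = 4) in WT samples, a difference of 0.94 (standard error 0.16, adjusted p = 0.00777). On 1456844_at the difference was 0.58 (adjusted p = 0.0142) with a WT mean of 4.64, and on 2 more probe sets it was 0.19 and 0.14 (adjusted p = 0.0819 and 0.459). Hax1, whose product binds phospholamban, was lower on 1426187_a_at, at 13.27 ± 0.04 (SD, n = 5) in null and 13.57 ± 0.09 (SD, n = 4) in WT samples (difference -0.29, adjusted p = 0.0116), but not on 1438180_x_at (difference -0.08, adjusted p = 0.432). Camk2a, with the next smallest p, had a difference of 0.27 on 1442707_at (adjusted p = 0.190) and of -0.10 on 1457311_at (adjusted p = 0.501).

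Of 17 listed genes of ER calcium release channels 15 were read, and Itpr1 and Pkd2 were not analysed here. The 15 gave 0 calls in limma among 36 probe sets, with a median of -0.00. An unadjusted p under 0.05 was found for 4 of the 36, and for 10386 of all 45037 probe sets. The smallest adjusted p were those of Asph, whose locus also makes junctin (difference 0.30 on 1420959_at, adjusted p = 0.0830, with 0.35, 0.20 and -0.09 on its other probe sets), of the inositol trisphosphate receptor gene Itpr3 (0.25, adjusted p = 0.112) and of Fkbp1a, which encodes a ryanodine receptor binding protein (-0.11 on 1416036_at, adjusted p = 0.198, and 0.08, 0.06 and 0.05 on its other probe sets, with adjusted p of at least 0.365).

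Calcium buffers and chaperones of the ER had 1 higher and 1 lower of 31 probe sets, with a median of -0.01. Rcn1, for reticulocalbin, a calcium-binding protein of the ER lumen, averaged 9.82 ± 0.19 (SD, n = 5) in null and 9.24 ± 0.25 (SD, n = 4) in WT samples, a difference of 0.58 (adjusted p = 0.0230). Calr3, a calreticulin of the testis, averaged 12.34 ± 0.04 (SD, n = 5) in null and 12.57 ± 0.06 (SD, n = 4) in WT samples on 1453232_at (difference -0.23, adjusted p = 0.0235), while both of its other probe sets differed by -0.08 without passing. Sdf4, for a calcium-binding protein of the Golgi, differed by 0.21 on 1455584_at (adjusted p = 0.124) and by -0.01 on 1426393_a_at (adjusted p = 0.904).

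ER calcium sensors and store-operated entry had 0 higher and 1 lower of 15 probe sets, with a median of -0.04. The lower one was 1438693_at of Stimate, which encodes an ER membrane protein that promotes the coupling of STIM1 to Orai channels, at 6.76 ± 0.14 (SD, n = 5) in null and 7.06 ± 0.08 (SD, n = 4) in WT samples (difference -0.30, adjusted p = 0.0449, and -0.14, adjusted p = 0.185, on its other probe set). The channel gene Orai2 differed by 0.19 (adjusted p = 0.0913) on 1 of its 2 detected probe sets. The calcium sensor gene Stim2 differed by 0.18 (adjusted p = 0.109), also on 1 of 2. The other probe set of each gene did not pass the test either.

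The BCL-2 family and ER leak list had 1 higher and 1 lower of 19 probe sets, with a median of 0.00. Psen2, the gene of presenilin 2, was higher on 1425869_a_at, at 7.58 ± 0.12 (SD, n = 5) in null and 7.11 ± 0.23 (SD, n = 4) in WT samples (difference 0.47, adjusted p = 0.0251), and had a difference of -0.13 on its other probe set (adjusted p = 0.353). Cib1, for a calcium- and integrin-binding protein, was lower on 1448564_at, at 11.72 ± 0.04 (SD, n = 5) in null and 11.91 ± 0.04 (SD, n = 4) in WT samples (difference -0.19, adjusted p = 0.0361), but not on 1425856_at (difference -0.06, adjusted p = 0.641). Tmbim6, for an ER membrane protein also called BAX inhibitor 1, differed by 0.13 (adjusted p = 0.165).

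**Figure D4:**
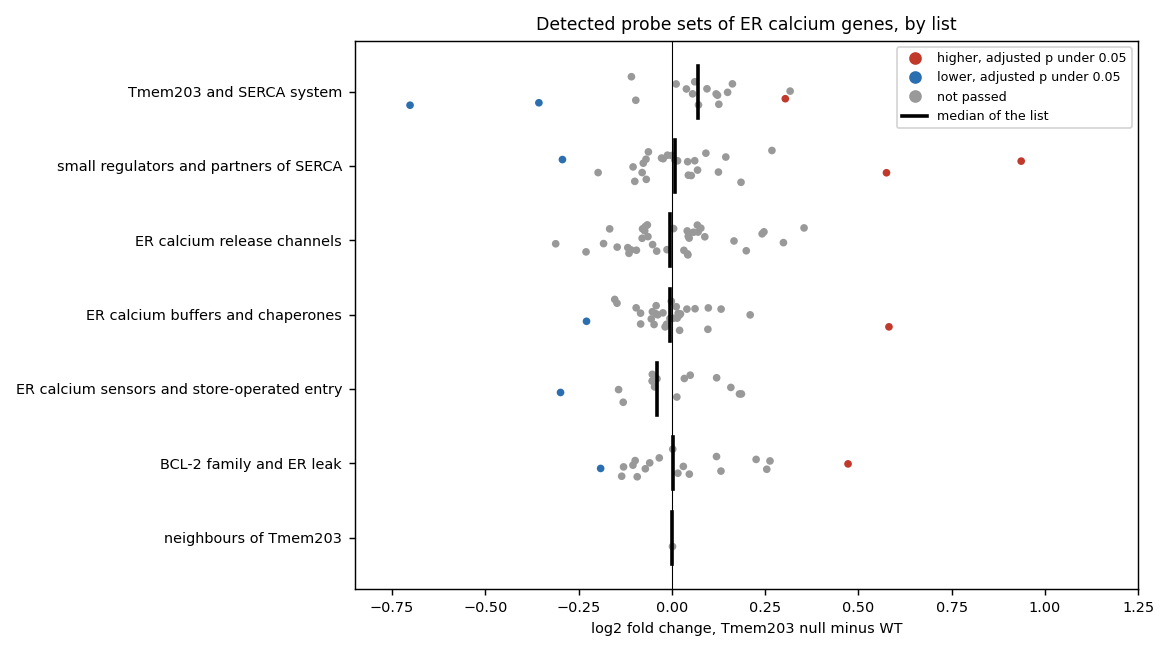
Difference in log2 signal (horizontal axis, Tmem203 null minus WT) of each detected probe set of the 9 genes (top row) and of 6 lists. Of the lists, 1 holds the neighbours of Tmem203 and the rest ER calcium genes. Small vertical offsets separate the points. Red and blue mark an adjusted p under 0.05, and black lines are medians. Of the 129 probe sets in the lists 4 were higher and 4 lower, and the list medians lie between -0.04 and 0.01.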

How the data were processed

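Testis RNA of 5 Tmem203 null and 4 WT samples was measured on Affymetrix arrays. The log2 signals deposited by the authors are the outcome of RMA (background adjustment, quantile normalization, summary per probe set). Scans were not used here, so neither these steps nor scan batches were examined.

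Genotypes were compared with limma 3.58.1 (lmFit, eBayes) in R 4.3.3 on 45037 probe sets, without the 64 controls of the manufacturer, with Benjamini-Hochberg adjustment over all. Python 3.11.15 served for joins and exact permutation tests. Symbols came from GEO's platform annotation: 34945 probe sets had 1 gene (34741 matched RefSeq, GRCm38.p6), 932 several and 9160 none. The number of arrays limits precision. The fit was tested on simulated data, where it recovered 41 of 50 probe sets changed 1.5-fold and 50 of 50 changed 2-fold, with 7 false calls. Noise was drawn independently for each probe set and array, with the same spread in both groups. Dependence between probe sets, unequal array quality and changes under 1.5-fold were not simulated. The counts therefore describe the simulated data only.

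Named are all probe sets of the 9 genes, up to 3 genes with the smallest p in each list, and the 5 profiles most like Tmem203. Markers were named after their values were seen. The genes and lists were chosen with earlier results of these data known.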

Additional observations from a re-analysis of the deposited data

Results flagged for a closer look

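A sample far from the others of its group, by Dixon's test, occurred in 5 of the 44 groups of samples examined (22 probe sets in each genotype), where chance gives about 1 in 20. For Atp2a1, null replicate 4 read 6.35, and the other null samples 6.63 to 6.71. For Atp2a3 on 1421129_a_at, null replicate 3 read 5.15, and the other null samples 5.29 to 5.34. WT replicate 3 was far below the other WT samples for Atp2a2 on 1437797_at (7.81, others 8.06 to 8.08) and for Atp2c2 (7.12, others 7.33 to 7.36). For Sln on 1420884_at, WT replicate 2 read 4.59 and the other WT samples 4.36 to 4.37, all under the detection threshold.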

How the results depend on the processing

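Tmem203 kept its direction and its call under all 17 alternatives. Over the 369 alternatives of single probe sets, 323 kept direction and side of the threshold, 32 lost the call, 0 gained one and 14 changed sign. Most of the 369 belong to the 18 probe sets that had not passed, which keep their side by not passing again. Some settings, such as the t-test, leave the difference itself unchanged. The call was lost in 12 of 17 for Atp2a3 1450124_a_at, 11 of 16 for Pln 1460332_at and 9 of 17 for Srl. The number of the 22 probe sets that passed, 4, was 2 after a further quantile normalization and 1 with the replicate block. It was 1 in an unpaired t-test (where 2 had p under 0.01, as had 4399 of all 45037) and 1 to 3 without 1 sample at a time. The study's methods name that t-test for its statistics in general and limma for the arrays. For SERCA pumps the count of 1 became 0 after quantile normalization, with array weights, with the replicate block and in the t-test, and 0 to 1 without 1 sample. For Pln, Sln and Srl the count of 2 became 1 after median centring, after quantile normalization and among detected probe sets only, 0 with the replicate block and in the t-test, and 0 to 1 without 1 sample. The secretory pathway pumps had 0 throughout (1 at an unadjusted p under 0.05 in limma and in the t-test). The 36 probe sets of ER calcium release channels had 0 in the t-test too, with 5 at an unadjusted p under 0.05. Over all 45037 probe sets, 10386 had an unadjusted p under 0.05 in limma and 9931 in the t-test. The Atp2a3 gap was -0.45 to -0.30 without 1 sample.

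Differences near 0 changed sign. Atp2a2 1416551_at was -0.0066 with array weights and -0.027 to 0.074 without 1 sample, and 1437797_at -0.0084 to 0.11 without 1 sample. Atp2a3 1421129_a_at was -0.020 after centring, -0.0052 with array weights, -0.0026 with the replicate block and -0.024 to 0.047 without 1 sample. Atp2c1 1439215_at was -0.051 with array weights and -0.11 to 0.26 without 1 sample, and Pln 1423359_at 0.012 after quantile normalization and -0.062 to 0.00088 without 1 sample.

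Over all probe sets, 1856 were higher and 1511 lower. Centring each array on its median moved the median difference from -0.01 to -0.05 and the counts to 1381 higher and 1884 lower. With the replicate block they were 645 and 529, in the t-test 971 and 1087, and without 1 sample 998 to 2173 and 910 to 1492. The replicate numbers of the labels are shared between genotypes, but same-numbered samples deviated from their group means with correlations of -0.06, 0.08, -0.01 and -0.01, so the numbers were not taken as pairs. The causes of these changes were not tested.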
